A study of Mus musculus with 18 samples.

Results

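Fc receptors were followed in eosinophils of the mouse small intestine as 7 genes of the deposited expression table: Fcgr1, Fcgr2b, Fcgr3, Fcgr4, Fcer1g, Fcer1a and Fcgrt. The members were chosen by gene symbol across the columns of all 3 genotypes, and each of the 7 symbols stood on a row of its own among the 22708 genes of the table.

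Fc receptors bind the constant part of antibodies, and so let a cell sense antibody-coated particles and immune complexes. Activating receptors signal through the immunoreceptor tyrosine-based activation motif (ITAM) of the common gamma chain, which recruits the kinase Syk, whereas the inhibitory receptor carries a motif that recruits the phosphatase Ship, encoded by Inpp5d. The balance between activating and inhibitory receptors sets how strongly an immune complex triggers phagocytosis, cytokine release or degranulation, which are known responses of tissue eosinophils.

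Among the members, Fcgr1 encodes the high-affinity IgG receptor, and Fcgr3 and Fcgr4 encode activating IgG receptors of lower affinity. Fcer1g encodes the common gamma chain that these receptors need for signalling. Fcgr2b encodes the inhibitory IgG receptor. Fcer1a encodes the IgE-binding chain of the high-affinity IgE receptor, and Fcgrt encodes the heavy chain of the neonatal Fc receptor, which pairs with B2m and returns IgG to the cell surface after uptake.

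The study profiled sorted CD11b+MHC-II-SiglecF+SSChi eosinophils by RNA sequencing in 18 samples, 6 for each of the genotypes WT, Ahr-KO and Ahrr-KO, with 3 males and 3 females apiece. All 3 groups shared the C57/BL6 strain, the tissue and the sort, and none is labelled with a treatment or an age; by the study's methods, mice were aged 6 to 14 weeks and differed by at most 3 weeks within an experiment. The methods give separate litters and separate housing for WT and Ahr-KO mice, so genotype and housing cannot be told apart. The origin of the Ahrr-KO mice is not described there. Ahr encodes the aryl hydrocarbon receptor (AHR), a transcription factor switched on by small-molecule ligands, and Ahrr encodes its repressor, itself a target of AHR.

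The total count per sample ran from 3842977 to 8149200 in WT, from 6581818 to 10284124 in Ahr-KO and from 8788867 to 12046933 in Ahrr-KO samples, so WT libraries were the shallowest. Values are given on the deposited variance-stabilized log2 scale unless stated otherwise, on which a count of 0 stands at 5.021. Each sample is named by genotype, sex and replicate number, such as WT F3 for the third female. A pair of libraries stood apart in the number of genes with a count: WT F3 had 20244 against at most 16526 in the other WT samples, and Ahr-KO F3 had 19694 against at most 16704 in the other Ahr-KO samples. WT F3 also had the lowest total count, 3842977. The comparisons of Fcgr2b and Fcgr4 between genotypes are therefore given with and without these libraries.

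The targeted genes were examined first. The deposited value of Ahr ran from 13.40 through a median of 13.76 to 14.40 in WT, from 14.15 through 14.55 to 14.67 in the samples labelled Ahr-KO, and from 13.03 through 13.51 to 14.42 in the samples labelled Ahrr-KO. Ahr was thus not lower in the samples labelled Ahr-KO, where the WT minus Ahr-KO difference was -0.61 with a limma adjusted p of 0.0557. The value of Ahrr ran from 9.79 through 10.12 to 10.39 in WT and from 9.95 through 10.37 to 10.93 in the samples labelled Ahrr-KO. Ahrr was not lower in the samples labelled Ahrr-KO either, with a WT minus Ahrr-KO difference of -0.28 and a limma adjusted p of 0.683. Values summed over all exons cannot check whether a stretch of the gene was deleted, and the deleted stretch is not given for either line.

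Target genes of AHR did separate the samples labelled Ahr-KO from WT. Ahrr ran from 5.021 through a median of 5.25 to 5.79 in these samples, with a count of 0 in 2 of 6, and its WT minus Ahr-KO difference was 4.83 (SE 0.14, limma adjusted p 4.95e-12). Among 5 tested genes of AHR and its classic targets, limma called 4, all lower in the samples labelled Ahr-KO than in WT, against 1003 of 11346 genes (8.84%), of which 418 were lower in Ahr-KO; Ahr itself was not called. Cyp1b1, a cytochrome P450 gene, differed by 4.07 (limma adjusted p 1.93e-08), Tiparp, a polymerase of ADP-ribose that restrains AHR, by 2.60 (1.56e-07) and Nqo1, a quinone reductase, by 1.82 (1.27e-07). Between WT and the samples labelled Ahrr-KO limma called 0 of the 5, against 9 of 11546 genes. At an unadjusted p below 0.05 stood 853 genes (7.39%), and voom called 4 genes over the whole table. Between Ahr-KO and Ahrr-KO samples limma called 5 of 5, against 1708 of 11474 genes (14.9%): Ahr was higher in Ahr-KO by 0.82, and Ahrr, Cyp1b1, Tiparp and Nqo1 were lower.

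The sorted cells carried eosinophil genes. Ccr3, the eotaxin receptor, had a median of 13.62 in WT, 13.57 in Ahr-KO and 13.47 in Ahrr-KO samples. Siglecf, used in the sort, had a median of 11.09 in WT, 11.42 in Ahr-KO and 10.79 in Ahrr-KO samples. Epx, the peroxidase of eosinophil granules, lay close to the bottom of the scale, with a median of 5.93 in WT, 5.87 in Ahr-KO and 5.66 in Ahrr-KO samples. Between WT and Ahr-KO samples limma called 2 of the 5 tested eosinophil genes: Prg2, the major basic protein of the granules, had a mean of 7.03 in WT and 9.33 in Ahr-KO samples, with a WT minus Ahr-KO difference of -2.30 (SE 0.17, limma adjusted p 3.47e-07), and Alox15, a lipoxygenase, had a difference of -0.58 (limma adjusted p 0.023). Siglecf had a difference of -0.37 and was not called (limma adjusted p 0.0529), though its groups did not overlap. In bulk RNA of sorted cells, fewer cells of a type and less RNA per cell cannot be told apart.

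Levels of the members were compared per kb of transcript, as normalized counts divided by the median length of the coding transcripts of each gene. In WT the median level per kb was 3398 for Fcer1g and 1178 for Fcgr3. It was 368 for Fcgr2b and 194 for Fcgr4. It was 44.0 for Fcgrt, 2.89 for Fcgr1 and 0 for Fcer1a. The common gamma chain and the low-affinity activating receptor Fcgr3 thus led the family, and the order of the medians per kb was the same in Ahr-KO and in Ahrr-KO samples.

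Neighbours in this order differed beyond the spread of their 6 samples in most places. The levels per kb of Fcgr2b and Fcgr4 overlapped in WT and in the samples labelled Ahrr-KO, and did not overlap in the samples labelled Ahr-KO. There the level per kb of Fcgr2b had a median of 649 and that of Fcgr4 a median of 67.7. Levels per kb of Fcgr1 and Fcer1a overlapped in both knockout groups. The place of Fcgr2b depends on the length used: with the longest coding transcript or the union of exons, both chosen after seeing the data, Fcgr4 stood above Fcgr2b in WT and Ahrr-KO samples and below it in Ahr-KO samples.

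**Figure D1:**
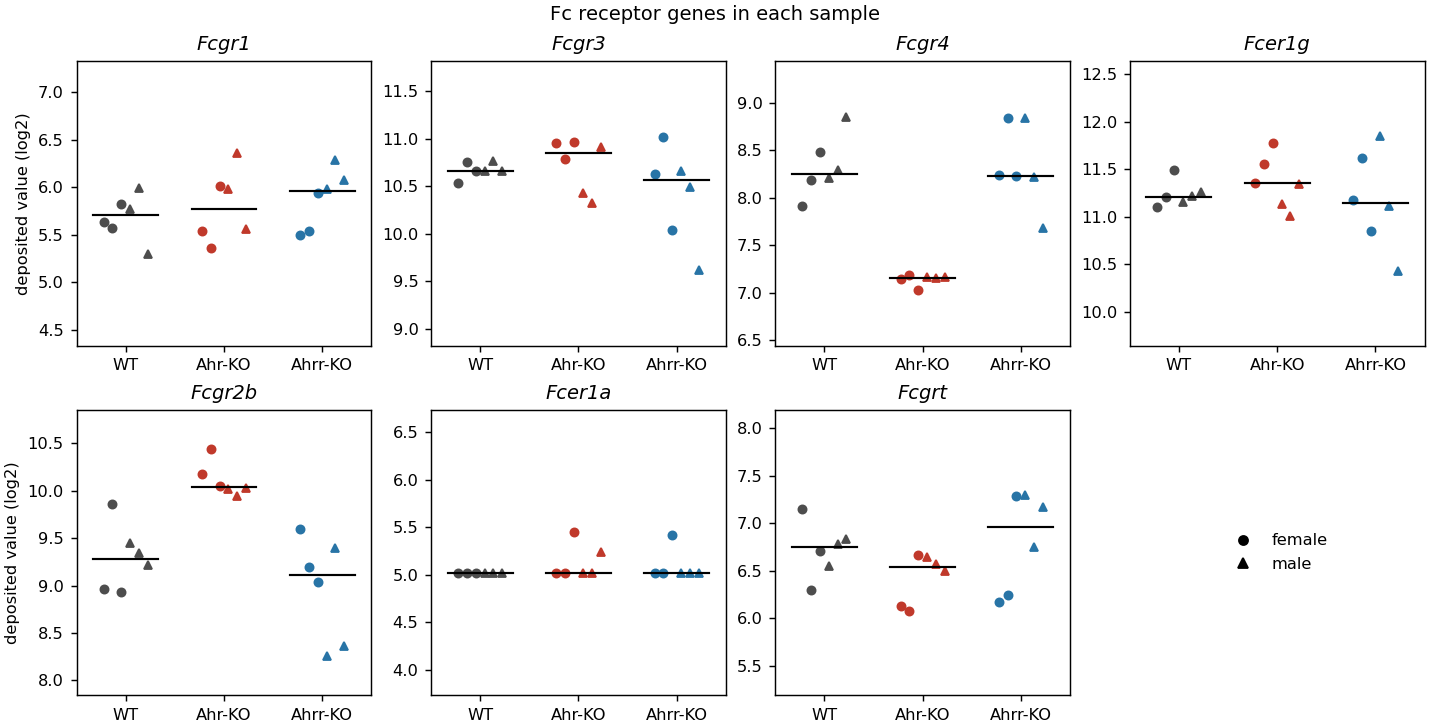
Deposited variance-stabilized log2 value of each of the 7 Fc receptor genes (vertical axis) in each sample, by genotype; circles are females, triangles are males, and black lines are the medians of 6 samples. The Ahr-KO samples sit between 7.03 and 7.19 for Fcgr4, below every other sample, and between 9.94 and 10.44 for Fcgr2b, above every other sample; Fcer1a is at the lowest value of the scale in most samples.

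The plot of the 7 genes by sample shows these values, with a vertical axis of its own range for each gene and the same span of values in all. Only Fcgr4 and Fcgr2b had groups that did not overlap between WT and Ahr-KO samples.

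On the genome (GRCm38), 4 members lay side by side on chromosome 1, from Fcgr2b through Fcgr4 and Fcgr3 to Fcer1g, within 276 kb. Fcer1a lay on the same chromosome, and the stretch from Fcgr2b to Fcer1a spanned 2269 kb. Fcgr1 was on chromosome 3 and Fcgrt on chromosome 7. Fcgr4 was read from the forward strand, and the other 6 members from the reverse strand. The stretch from Fcgr2b to Fcer1g held 8 other genes of the table, of which 1, Sdhc, an enzyme subunit of the respiratory chain, was tested. Its WT minus Ahr-KO difference was 0.38 and was not called by limma (adjusted p 0.2).

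Promoters of Fcgr4, Fcgr3 and Fcer1g are shown because the 3 genes share this stretch and encode activating receptors or their signalling chain, while their values differed in how they moved with genotype. Each sequence gives the 250 bases before a RefSeq transcript start, read on the strand of the gene, and capitals mark GCGTG or GAGGAA on either strand, so that GAGGAA on the opposite strand reads TTCCTC. The windows, in GRCm38.p6, are chr1:171018676-171018925 on the forward strand for Fcgr4, chr1:171059404-171059653 on the reverse strand for Fcgr3 and chr1:171234350-171234599 on the reverse strand for Fcer1g. The RefSeq start used for Fcgr3 lies inside the annotated gene, which reaches further upstream, so its window is not at the outer end of the gene.
Fcgr4: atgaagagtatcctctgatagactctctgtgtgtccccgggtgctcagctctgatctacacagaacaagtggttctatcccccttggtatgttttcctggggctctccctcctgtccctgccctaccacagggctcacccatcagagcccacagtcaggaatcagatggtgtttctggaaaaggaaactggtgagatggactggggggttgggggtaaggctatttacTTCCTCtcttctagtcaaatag
Fcgr3: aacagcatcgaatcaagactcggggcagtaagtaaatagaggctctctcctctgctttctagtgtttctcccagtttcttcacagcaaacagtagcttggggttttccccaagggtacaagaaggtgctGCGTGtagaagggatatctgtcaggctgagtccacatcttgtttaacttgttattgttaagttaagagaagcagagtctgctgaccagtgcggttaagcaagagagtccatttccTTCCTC
Fcer1g: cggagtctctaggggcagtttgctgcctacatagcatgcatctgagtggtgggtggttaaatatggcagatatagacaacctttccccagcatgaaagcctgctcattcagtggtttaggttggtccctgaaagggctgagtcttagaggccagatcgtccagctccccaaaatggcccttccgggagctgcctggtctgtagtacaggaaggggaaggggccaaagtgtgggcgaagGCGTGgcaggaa

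GCGTG, the core letters that AHR binds, was searched on both strands and stood in 28.2% of 32851 promoters of this length. The longer form TNGCGTG, which contains that core, stood in 4.10%. GAGGAA, core letters of the myeloid factor PU.1, stood in 23.3%. All 7 members had a RefSeq promoter. GCGTG was present in the windows of 3 members, Fcgr3 (at its internal start), Fcer1g and Fcgrt, and TNGCGTG in 0. GAGGAA was present in the windows of 4 members, Fcgr4, Fcgr3, Fcer1a and Fcgr1. The Fcgr2b window, of which 187 of the 250 bases lay in annotated exons, held none of the 3 motifs. In the Fcgr4 window GAGGAA lay on the opposite strand, 22 to 17 bases before the start. A match of letters is a description of the window only.

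Counts of a few members carry some uncertainty from shared or overlapping sequence. Of the 75-base windows of Fcgr2b transcripts, 1.63% were also present in Fcgr3, and 5.43% in any other gene. Seen from Fcgr3, 5.42% of its windows were shared with Fcgr2b. Windows of Fcgr4 and of the other 4 members were not found in any other gene. The strand used in counting is not stated, and the antisense gene Gm38204 held 1.42% of the Fcgr2b windows on the opposite strand.

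The comparison of WT with Ahr-KO samples asks which transcripts of intestinal eosinophils depend on AHR. Among the Fc receptors, the activating receptor gene Fcgr4 was lower and the inhibitory receptor gene Fcgr2b higher in the samples labelled Ahr-KO, while Fcgr3, Fcer1g and Fcgrt did not pass the test. With limma, 2 of 5 tested members were called at an adjusted p below 0.05, against 1003 of 11346 tested genes (8.84%). The samples of the groups did not overlap for the same 2 members, against 512 of 11346 genes (4.51%). Fcgr1 and Fcer1a lay below the minimum mean of 1 above the lowest value and were not tested. The median difference was -0.05 over the 5 tested members and 0.00 over all tested genes.

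Fcgr4, the activating receptor for IgG complexes, ran from 7.91 (WT F1) through a median of 8.25 to 8.85 (WT M3) in WT. In the samples labelled Ahr-KO it ran from 7.03 (Ahr-KO F3) through 7.16 to 7.19 (Ahr-KO F2). All 6 Ahr-KO samples were low and close together, every WT sample was higher, and the groups did not overlap. The WT minus Ahr-KO difference was 1.18 (SE 0.13, 95% confidence interval 0.91 to 1.46, n = 6 per group), which is 2.27-fold on the deposited scale, with a limma adjusted p of 2.24e-05. The deposited scale compresses low counts, and the log2 difference was 1.60 in a fit of limma with voom to the recovered counts. Without WT F3 and Ahr-KO F3, left out after seeing the data, the difference was 1.13 with a limma adjusted p of 0.000428. In recovered counts, Fcgr4 had a median of 174.5 per WT sample and 93 per Ahr-KO sample, although the WT libraries were shallower.

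Fcgr2b, the inhibitory receptor, ran from 8.94 (WT F3) through a median of 9.28 to 9.85 (WT F2) in WT. In the samples labelled Ahr-KO it ran from 9.94 (Ahr-KO M2) through 10.04 to 10.44 (Ahr-KO F2). Every Ahr-KO sample was higher than every WT sample, with WT F2 closest to the Ahr-KO group. The WT minus Ahr-KO difference was -0.81 (SE 0.15, 95% confidence interval -1.12 to -0.51, n = 6 per group), a 1.76-fold higher value in Ahr-KO samples, with a limma adjusted p of 0.00191. Without WT F3 and Ahr-KO F3 it was -0.75 with a limma adjusted p of 0.0102.

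Fcgr3, the most abundant of the IgG receptors per kb, ran from 10.54 through a median of 10.67 to 10.76 in WT and from 10.33 through 10.85 to 10.97 in Ahr-KO samples. The WT samples were tightly grouped within the wider Ahr-KO range. The WT minus Ahr-KO difference was -0.05 with a 95% confidence interval of -0.30 to 0.19 and a limma adjusted p of 0.819. Fcer1g, the common gamma chain, ran from 11.10 through 11.21 to 11.49 in WT and from 11.01 through 11.35 to 11.78 in Ahr-KO samples. Its groups overlapped, and the difference of -0.13 had a 95% confidence interval of -0.37 to 0.12 and a limma adjusted p of 0.543. Both intervals end short of the size seen for Fcgr4, whose interval starts at 0.91.

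Fcgrt, the neonatal Fc receptor gene, ran from 6.30 through a median of 6.75 to 7.15 in WT and from 6.08 through 6.54 to 6.67 in Ahr-KO samples. The groups overlapped, and the WT minus Ahr-KO difference of 0.29 had a 95% confidence interval of -0.04 to 0.62 and a limma adjusted p of 0.276. WT F1 and WT F2, highest and lowest for Fcgrt in WT, also had the highest and lowest epithelial marker sums, 24194 and 6984, described below. Ahr-KO F2 was lowest of its group in both. Ahrr-KO F3, M1 and M3 were above the other Ahrr-KO samples in both. Other extremes of the knockout groups lay in different samples. The part of epithelial cells in the values of Fcgrt was not tested. Fcgr1, the high-affinity IgG receptor gene, had recovered counts of 1 to 12 with a median of 5 in WT, 2 to 32 with a median of 9.5 in Ahr-KO and 4 to 33 with a median of 20 in Ahrr-KO samples. Counts this low do not resolve a difference between the groups at these depths. Fcer1a had a count of 0 in all 6 WT samples, which allows up to 3 counts per sample, or 3.01 to 6.19 normalized counts, and it had a count of 0 in 4 of 6 Ahr-KO and 5 of 6 Ahrr-KO samples. Its highest counts were 3 in Ahr-KO F3 and 4 in Ahrr-KO F3.

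**Figure D2:**
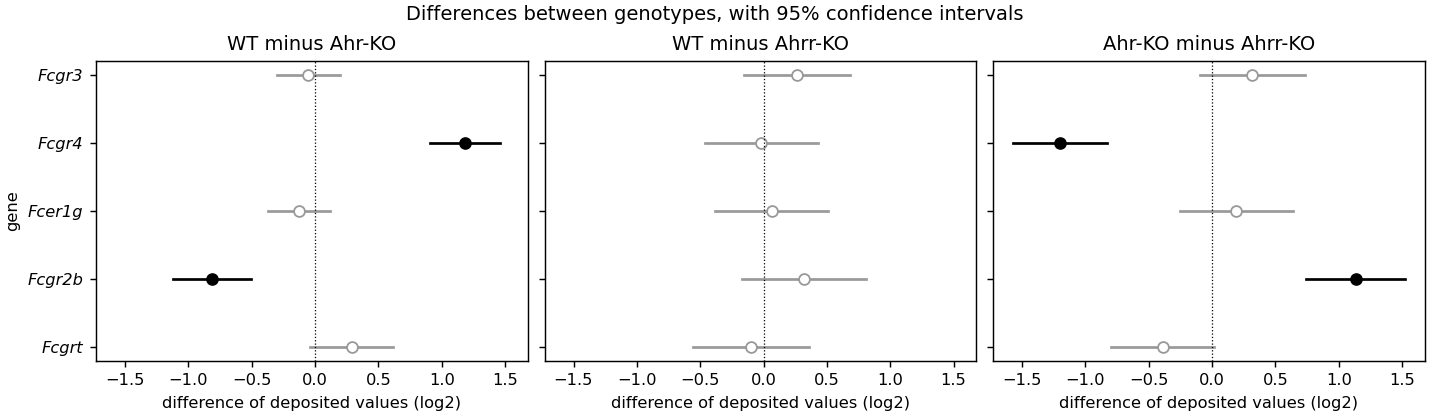
Difference of the deposited log2 values (horizontal axis) for the 5 tested Fc receptor genes in the 3 genotype comparisons, first group minus second; points are limma estimates from 6 samples per group, bars are 95% confidence intervals, and filled black points have an adjusted p below 0.05. Fcgr4 and Fcgr2b lie on opposite sides of 0 in both comparisons that involve Ahr-KO samples, and no gene is filled between WT and Ahrr-KO samples.

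The comparison of WT with the samples labelled Ahrr-KO asks which transcripts differ with that label, although Ahrr itself was not lower in these samples. With limma, 0 of 5 tested members were called, against 9 of 11546 tested genes (0.0779%), and 0 members had groups that did not overlap, against 53 genes (0.459%). At an unadjusted p below 0.05, limma gave 0 members and 853 genes (7.39%), and limma with voom on the recovered counts called 0 members and 4 genes. The median difference was 0.06 over the tested members and -0.01 over all tested genes. This comparison shares its WT samples with the comparison of WT and Ahr-KO.

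Fcgr4 ran from 7.68 (Ahrr-KO M3) through a median of 8.23 to 8.84 (Ahrr-KO F2) in the samples labelled Ahrr-KO, a range that overlapped with most of the WT range. The WT minus Ahrr-KO difference was -0.02 with a 95% confidence interval of -0.46 to 0.43 and a limma adjusted p of 0.979, and its sign turned with voom and after samples were centred on their medians. Fcgr2b ran from 8.25 (Ahrr-KO M1) through 9.12 to 9.60 (Ahrr-KO F1) in these samples. A pair of males, Ahrr-KO M1 and Ahrr-KO M3, lay below all WT samples, and the other 4 samples lay within the WT range. The difference was 0.32 with a limma adjusted p of 0.706. Without WT F3 the difference was -0.06 for Fcgr4 and 0.43 for Fcgr2b, with limma adjusted p of 0.946 and 0.727.

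Fcgr3 ran from 9.62 through a median of 10.56 to 11.02 in the samples labelled Ahrr-KO, a wider range than in WT, and the WT minus Ahrr-KO difference was 0.26 (limma adjusted p 0.714). Fcer1g ran from 10.43 through 11.14 to 11.85, and the difference was 0.06 (limma adjusted p 0.929). The lowest sample was Ahrr-KO M3 for both genes. Of its group, Ahrr-KO M3 also had the lowest summed level of eosinophil markers, 14322, and the highest of epithelial markers, 39755. The part of cell composition in these values was not tested. Fcgrt ran from 6.18 through 6.96 to 7.30, and the difference was -0.10 (limma adjusted p 0.889). For all 3 genes the samples of the groups overlapped.

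Ahr-KO samples were also compared directly with the samples labelled Ahrr-KO; this comparison shares samples with each of the other 2 and is no separate evidence. With limma, 2 of 5 tested members were called, against 1708 of 11474 tested genes (14.9%), and the samples of the groups did not overlap for the same 2 members, against 529 genes (4.61%). The Ahr-KO minus Ahrr-KO difference of Fcgr4 was -1.20 (SE 0.17, 95% confidence interval -1.57 to -0.83, limma adjusted p 0.000512). For Fcgr2b it was 1.13 (SE 0.18, 95% confidence interval 0.74 to 1.52, limma adjusted p 0.00121). Every Ahr-KO sample was thus below every Ahrr-KO sample for Fcgr4 and above every Ahrr-KO sample for Fcgr2b. Without Ahr-KO F3 the differences were -1.17 (limma adjusted p 0.00179) and 1.19 (limma adjusted p 0.00193). The differences of the other tested members were 0.32 for Fcgr3, 0.19 for Fcer1g and -0.39 for Fcgrt, with limma adjusted p of 0.275, 0.559 and 0.166. The plot of differences with their intervals shows the 3 comparisons side by side.

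Within single samples, the balance of the receptors was read as a ratio of levels per kb. The ratio of Fcgr4 to Fcgr2b per kb ran from 0.323 through a median of 0.509 to 0.910 in WT. It ran from 0.0803 through 0.0995 to 0.111 in the samples labelled Ahr-KO, and from 0.407 through 0.641 to 1.96 in the samples labelled Ahrr-KO. All Ahr-KO samples were below all others, and Ahrr-KO M1 was far above the rest of its group. These ratios follow from the values of Fcgr4 and Fcgr2b given above and carry no test. Their size depends on the length used for Fcgr2b, and the order of the samples does not.

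All 3 activating IgG receptor genes together, Fcgr1, Fcgr3 and Fcgr4, stood to Fcgr2b per kb at 2.54 to 5.04 with a median of 4.02 in WT. In the samples labelled Ahr-KO this ratio ran from 1.55 to 2.32 with a median of 1.89, and in the samples labelled Ahrr-KO from 2.85 to 9.32 with a median of 3.45. The Ahr-KO samples thus had the lowest ratios of activating to inhibitory receptor transcripts, without overlap with WT. The ratio of Fcgr3 to Fcgr2b per kb had a median of 3.32 in WT, 1.79 in Ahr-KO and 2.85 in Ahrr-KO samples, and the ranges of WT and Ahr-KO overlapped narrowly.

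Within the activating receptors, Fcgr4 made up 11.8% to 21.3% of the summed level per kb of Fcgr1, Fcgr3 and Fcgr4 in WT, with a median of 13.6%. The share was 3.84% to 6.74% with a median of 4.90% in the samples labelled Ahr-KO, and 14.3% to 21.1% with a median of 17.2% in the samples labelled Ahrr-KO. Fcgr4 thus stood between Fcgr3 and Fcgr1 in every sample, with its lowest shares in the Ahr-KO samples. The level per kb of Fcer1g, the common gamma chain, stood to the sum of these 3 genes at a median of 2.37 in WT, 2.98 in Ahr-KO and 2.67 in Ahrr-KO samples.

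**Figure D3:**
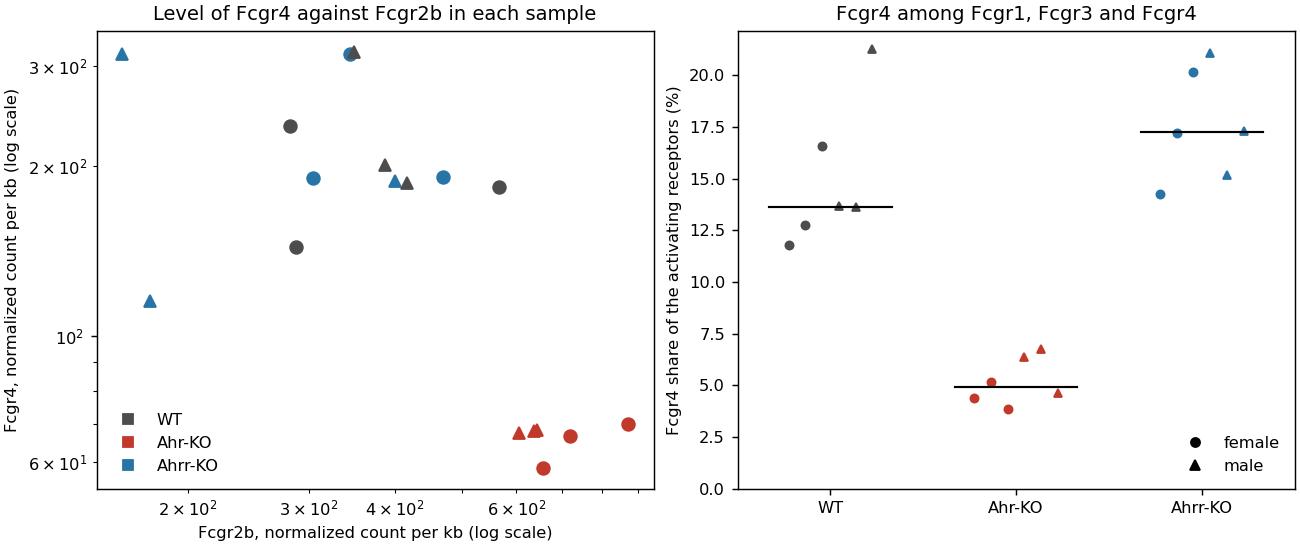
Left, normalized count per kb of Fcgr4 (vertical axis, log scale) against that of Fcgr2b (horizontal axis, log scale) in each of the 18 samples; right, Fcgr4 as a percentage of the summed level per kb of Fcgr1, Fcgr3 and Fcgr4 (vertical axis) by genotype, with black lines at the medians of 6 samples; circles are females and triangles males. The 6 Ahr-KO samples sit apart at high Fcgr2b and low Fcgr4, with shares of 3.84% to 6.74%.

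The plot of Fcgr4 against Fcgr2b shows the Ahr-KO samples as a group of their own at its lower right, with WT and Ahrr-KO samples mixed above them.

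Sex was compared over all 18 samples with genotype in the model. With limma, 0 of 5 tested members were called between males and females, against 351 of 11468 genes (3.06%), and 0 members had an unadjusted p below 0.05; limma with voom also called 0 members. The male minus female difference was -0.25 for Fcgr2b, -0.20 for Fcgr3 and -0.18 for Fcer1g. It was 0.04 for Fcgr4 and 0.26 for Fcgrt, and the lowest limma adjusted p of the 5 genes was 0.372.

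Within each sex, Fcgr4 and Fcgr2b differed between WT and Ahr-KO samples in the same direction. For Fcgr4, WT females ran from 7.91 to 8.48 and Ahr-KO females from 7.03 to 7.19. WT males ran from 8.21 to 8.85 for the same gene and Ahr-KO males from 7.15 to 7.16. For Fcgr2b, WT females ran from 8.94 to 9.85 and Ahr-KO females from 10.05 to 10.44, while WT males ran from 9.21 to 9.45 and Ahr-KO males from 9.94 to 10.02. A difference between the sexes in the effect of genotype was tested as an interaction. For WT and Ahr-KO limma called 0 of 5 members and 0 of 11346 genes (0%). There 533 genes (4.7%) had an unadjusted p below 0.05, and voom called 0 with 549. For WT and Ahrr-KO limma called 0 of 5 members and 0 of 11546 genes (0%). There 544 genes (4.71%) had an unadjusted p below 0.05, and voom called 0 with 457. No member had an unadjusted p below 0.05 in either interaction.

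Other Fc receptors, Fc receptor-like genes and genes of antibody-binding proteins were described from a list of 12 genes, of which 6 were tested. Between WT and Ahr-KO samples limma called 3 of the 6, all higher in WT, against 1003 of 11346 genes (8.84%), and the list's median difference was 0.76 against 0.00 over all genes. Fcrls, a member of the Fc receptor-like family, ran from 8.71 through a median of 8.98 to 9.52 in WT, and from 5.021 through 5.65 to 5.94 in the samples labelled Ahr-KO, where 2 of 6 had a count of 0. Its difference was 3.49 (SE 0.19, limma adjusted p 6.4e-09), and the groups did not overlap. Lgals3, a lectin that binds IgE, differed by 1.14 (limma adjusted p 0.000326), and Fcrl1, another Fc receptor-like gene, by 0.55 (limma adjusted p 0.00394). Between WT and Ahrr-KO samples limma called 0 of 6, and between Ahr-KO and Ahrr-KO samples 4 of 6, all higher in Ahrr-KO, against 1708 of 11474 genes (14.9%), of which 923 were higher in Ahrr-KO, a split whose majority turned in some settings. These 4 were Fcrls, Lgals3, the mucus protein gene Fcgbp and Pigr, the epithelial receptor for polymeric antibodies and the most abundant gene of the list per kb. Of 10 epithelial markers, 6 were also higher in Ahrr-KO than in Ahr-KO samples, and Muc2, not one of these 6, was higher in WT than in Ahr-KO samples, as given below; the part of epithelial markers in the values of this list was not tested.

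Partners of the Fc receptors at the membrane were followed in 3 lists. Of 8 genes for receptors that pair with the common gamma chain and for the beta chain of the IgE receptor, 4 were tested and limma called 0 in both comparisons with WT, against 8.84% of all genes for Ahr-KO and 0.0779% for Ahrr-KO. Between Ahr-KO and Ahrr-KO samples it called 2 of 4, against 14.9% of all genes: Pira2, the most abundant of them per kb, was higher in Ahr-KO by 0.63 (adjusted p 0.0143), and Clec4d, a C-type lectin receptor, was lower, with a mean of 6.91 against 7.91 (adjusted p 0.00188). B2m, the light chain that pairs with Fcgrt, had a WT minus Ahr-KO difference of -0.06 and a limma adjusted p of 0.839, and was not called in any genotype comparison. Of 3 other signalling adaptors at the membrane, 2 were tested between WT and Ahr-KO samples. Limma called 1, against 8.84% of all genes: Hcst, with a difference of -0.60 (limma adjusted p 0.0103). It was also higher in Ahr-KO than in Ahrr-KO samples, by 0.67 (limma adjusted p 0.0189). Tyrobp, the most abundant of these adaptors per kb, had a difference of -0.22 and was not called (limma adjusted p 0.422).

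Downstream of the activating receptors, limma called 2 of 26 tested genes of the ITAM kinases and adaptors between WT and Ahr-KO samples, with a list median of -0.06. Pik3cb, a catalytic subunit of phosphoinositide kinase, was higher in Ahr-KO samples (difference -0.66, adjusted p 0.00043 in limma). Gab2, an adaptor, was higher in WT (difference 0.47, adjusted p 0.00342 in limma). The share of the list, 7.69%, was near the 8.84% of all genes. Between WT and Ahrr-KO samples 0 of 27 were called by limma, and between Ahr-KO and Ahrr-KO samples 4 of 27 (Pik3cb, Gab2 and the kinases Tec and Btk), a share of 14.8% beside 14.9% of all genes. Lcp2, the most abundant gene of the list per kb, was not called in any of the 3.

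A list drawn up for the inhibitory arm of receptor signalling, which included Inpp5d, held 12 genes of phosphatases, adaptors, ubiquitin ligases and a kinase. Whether each gene restrains signalling in these cells was not tested. Between WT and Ahr-KO samples limma called 4 of 12, against 1003 of 11346 genes (8.84%), with a list median of -0.14 against 0.00. Of the 4, 3 were higher in Ahr-KO samples and 1 in WT, and of the 1003 genes 585 were higher in Ahr-KO. Cblb, a ubiquitin ligase that restrains receptor signalling, had a difference of -1.20 (SE 0.17, adjusted p 0.000251). Sh2d1b1 and Dok3, both adaptors, had differences of -0.66 (adjusted p 0.00156) and -0.45 (adjusted p 0.023) in limma, and Ubash3b, which counters Syk, had 0.46 (adjusted p 0.0247). Cbl, the most abundant gene of the list per kb, was not called. Between WT and Ahrr-KO samples limma called 0 of 12, and between Ahr-KO and Ahrr-KO samples 2 of 12, Cblb and Sh2d1b1, a share of 16.7% near the 14.9% of all genes.

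Effectors of phagocytosis and actin were followed in 27 genes, all of them tested. Between WT and Ahr-KO samples limma called 5 of 27 (18.5%), against 8.84% of all genes, of which 2 were higher in WT and 3 in Ahr-KO samples, with a list median of -0.03. Pak1, a kinase of actin remodelling, had a difference of -1.11 (adjusted p 1.91e-06), and Cybb, the catalytic subunit of the phagocyte oxidase, of -0.52 (adjusted p 0.0332). Vav2, an exchange factor, was higher in WT by 0.69 (adjusted p 0.00191), and Ncf4, a cytosolic subunit of the oxidase, by 0.52 (adjusted p 0.0104). Between WT and Ahrr-KO samples limma called 0 of 27, and between Ahr-KO and Ahrr-KO samples 4 of 27 (Pak1, Cybb, Vav2 and Marcksl1), a share of 14.8% beside 14.9% of all genes. Ncf1, the most abundant gene of the list per kb, was not called in any of the 3. Beside each 0 between WT and Ahrr-KO samples stand 853 genes (7.39%) at an unadjusted p below 0.05 over the whole table.

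Genes with patterns most like those of Fcgr4 and Fcgr2b were sought among 11468 genes, by the mean absolute difference of the deposited values over 18 samples after each gene was centred on its own mean. Those closest to Fcgr4 were Tm2d2 at 0.201, Aldh3a2, a fatty aldehyde dehydrogenase, at 0.229 and Gm14548, a symbol that stands on 2 rows, at 0.234. Each of the 3 was higher in WT than in Ahr-KO samples, as Fcgr4 was. Those closest to Fcgr2b were Adgrg6, an adhesion receptor, at 0.132, Carns1, a carnosine synthase, at 0.152 and Lrmp at 0.168. Each of these was lower in WT than in Ahr-KO samples, as Fcgr2b was. Likeness of pattern was the criterion for choosing them, so their differences are a description.

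Transcripts of other cell types were summed per sample from marker lists, because Fc receptors are expressed by many leukocytes. Between WT and Ahr-KO samples, 4 of 9 summed levels differed by a two-sided exact permutation test of the log2 sums, with p-values adjusted over 18 tests. Calls of single markers stand against 1003 of 11346 genes (8.84%), of which 585 were higher in Ahr-KO. The eosinophil sum, led by Alox15, had a median of 35018 in WT and 44609 in Ahr-KO samples, and limma called 2 of 5 tested genes, Prg2 and Alox15, both higher in Ahr-KO. The neutrophil sum, led by Retnlg, had a median of 36170 in WT and 84323 in Ahr-KO samples, and limma called 2 of 6 tested genes, Retnlg and the chemokine receptor Cxcr2, both higher in Ahr-KO (by 1.21 and 0.65). The sum for endothelial cells and fibroblasts, led by Pecam1, had a median of 3369 in WT and 2145 in Ahr-KO samples, and limma called 1 of 3 tested genes, Pecam1, higher in WT by 0.63. For these 3 lists the groups did not overlap, and the exact adjusted p was 0.013. The sum for macrophages, monocytes and dendritic cells, led by Itgax, had a median of 9811 in WT and 12180 in Ahr-KO samples, with overlapping groups, an exact adjusted p of 0.0195 and 2 of 12 tested genes called, Csf1r and Itgax, both higher in Ahr-KO (by 0.49 and 0.42).

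Single genes and defining markers qualify these sums. The neutrophil sum was mostly Retnlg. Its mean deposited value was 15.06 in WT and 16.27 in Ahr-KO samples, beside mean log2 sums of 15.09 and 16.30 for the list. The median WT minus Ahr-KO difference over the 6 tested neutrophil genes was -0.37. Ly6g, the surface marker of neutrophils, had a count of 0 in 5 of 6 WT, 5 of 6 Ahr-KO and 3 of 6 Ahrr-KO samples. Camp and Mpo of the neutrophil list had a count of 0 in most samples of each genotype, and Elane in every sample but Ahrr-KO F2. C1qa, Flt3 and Xcr1 of the macrophage, monocyte and dendritic cell list had a count of 0 in few samples. These were Ahr-KO F2 for C1qa, Ahr-KO F1 and Ahrr-KO M1 for Flt3, and WT M3 for Xcr1. Prg3 and Ear2 of the eosinophil list had a count of 0 in some samples, and Ear6 in every sample but WT F3 and Ahr-KO F3. The sum for endothelial cells and fibroblasts was mostly Pecam1. Its mean deposited value was 11.65 in WT, beside a mean log2 sum of 11.68 for the list. The median WT minus Ahr-KO difference over the 3 tested genes of that list was 0.22. Cdh5 and Col1a2 had WT means of 6.08 and 6.02 and were not tested between WT and Ahr-KO samples. Pdgfra had a count of 0 in some samples. The sort kept CD11b+MHC-II-SiglecF+SSChi cells, and the part of these cell types in the values of Fcgr4 and Fcgr2b was not tested. The sum for macrophages, monocytes and dendritic cells was mostly Itgax. The mean deposited value of Itgax was 12.78 in WT and 13.19 in Ahr-KO samples, beside mean log2 sums of 13.26 and 13.64 for the list. The summed level of this list was higher in the samples labelled Ahr-KO, where Fcgr4 was lower and Fcgr2b higher. The median difference over its 12 tested genes was -0.05 against 0.00 over all genes.

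The other 5 marker sums did not pass the exact test between WT and Ahr-KO samples. Mast cell markers, led by Kit, summed to medians of 83.9 in WT, 109 in Ahr-KO and 191 in Ahrr-KO samples, and basophil markers, led by Cd200r3, to 1.83, 16.6 and 2.16. Both are near 0 beside the eosinophil sum, as is the IgE receptor chain Fcer1a, which these cell types carry; Mcpt8, which defines basophils, had a count of 0 in 5 of 6 samples of each genotype. Markers of NK and T cells, led by Cd4, summed to medians of 39.3, 41.7 and 85.8. Markers of B and plasma cells, led by Jchain, summed to medians of 570 in WT, 288 in Ahr-KO and 3902 in Ahrr-KO samples. Epithelial markers, led by Muc2, summed to medians of 10419, 8064 and 22824. Of these limma called 1 of 10 between WT and Ahr-KO samples, Muc2, higher in WT by 1.12 (adjusted p 0.00174) without overlap of the groups, and the list median was 0.48 against 0.00 over all genes. Between WT and Ahrr-KO samples no marker sum passed the exact test after adjustment, the lowest adjusted p being 0.145, and limma called 2 of 6 tested neutrophil genes, S100a9 and S100a8, both higher in Ahrr-KO, against 9 of 11546 genes, all 9 of them higher in Ahrr-KO.

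Between Ahr-KO and Ahrr-KO samples the marker sums were not tested, and calls of single markers stand against 1708 of 11474 genes (14.9%). In this comparison, where Fcgr2b was higher and Fcgr4 lower in Ahr-KO, limma called 4 of 5 tested eosinophil genes, all higher in Ahr-KO: Prg2 by 2.07, Alox15 by 0.79, the interleukin receptor chain Il5ra by 0.75 and Siglecf by 0.72. It called 6 of 10 epithelial genes, all higher in Ahrr-KO, with Lgals4 at -1.18, Krt19 at -1.12, Epcam at -1.12 and Krt8 at -1.08. Of 6 tested neutrophil genes it called 3, S100a8 (-1.73), S100a9 (-1.69) and Retnlg (1.29). Jchain (-3.20) was called of 3 tested B and plasma cell genes, C1qb (-1.06) and Itgax (0.61) of 14 genes of macrophages, monocytes and dendritic cells, and Col1a2 (-1.09) and Cdh5 (-0.70) of 7 genes of endothelial cells and fibroblasts. The part of these cell types in the values of the members was not tested.

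**Figure D4:**
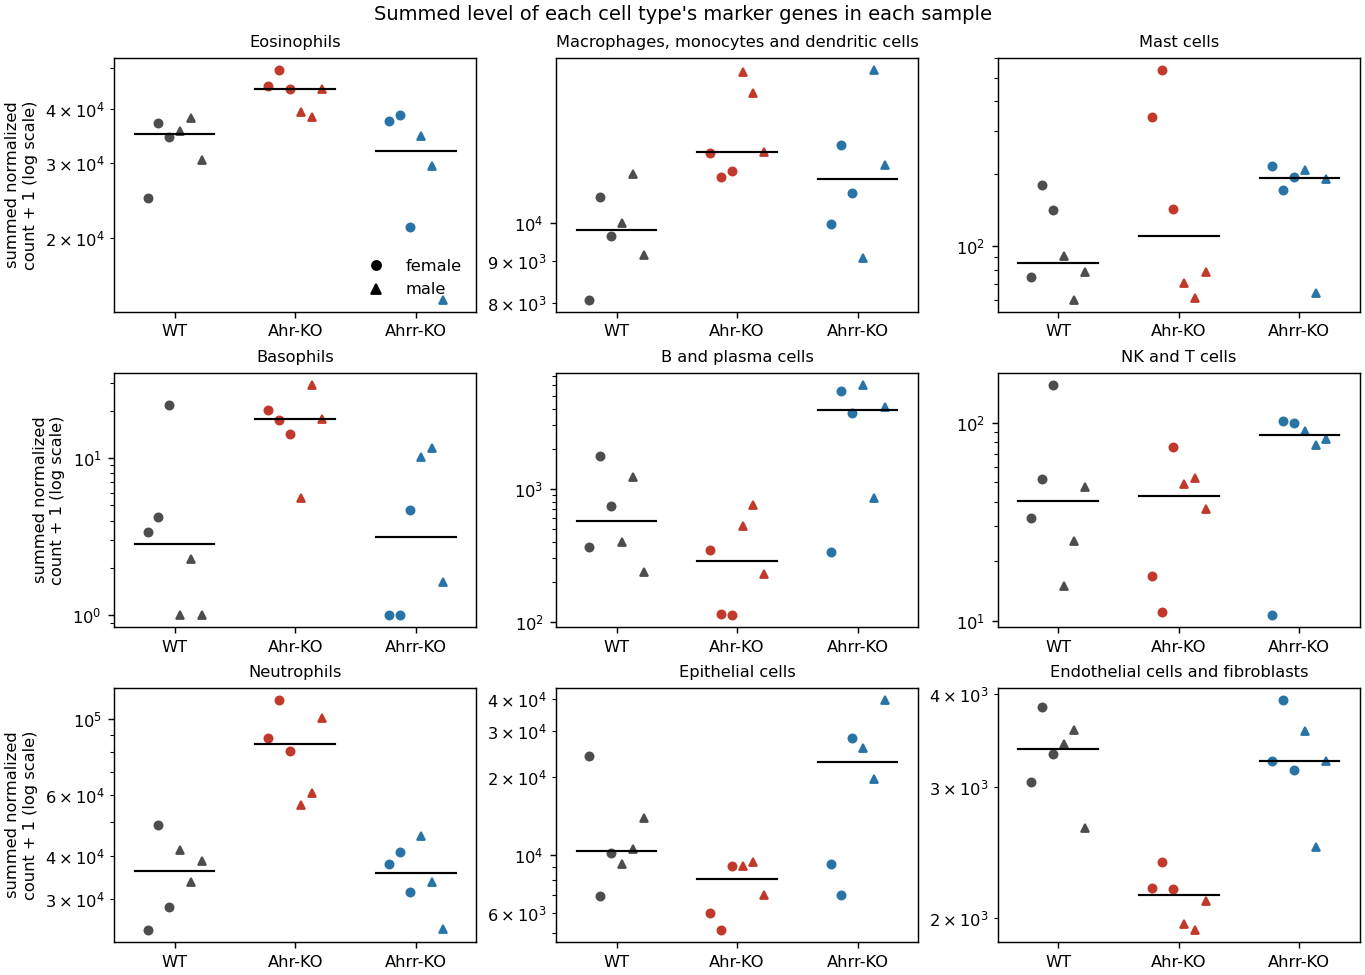
Summed normalized count plus 1 (vertical axis, log scale) of the marker genes of 9 cell types in each sample, by genotype; circles are females, triangles males, and black lines the medians of 6 samples. The neutrophil sums of the Ahr-KO samples, from 56088 to 113776, lie above those of all WT samples, from 24246 to 49009, and mast cell and basophil sums are low throughout. The neutrophil sums are mostly Retnlg, and the median WT minus Ahr-KO difference over the 6 tested neutrophil genes is -0.37.

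The plot of summed marker levels gives the spread behind these medians, with an axis of its own for each cell type.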

How the data were processed

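Sorted small intestinal eosinophils of 18 mice were sequenced by the authors with single-end reads. Per the labels, the authors used STAR 2.5.2 and RSEM 1.3.0 on GRCm38, and DESeq2 in R 4.0.3. The deposited table holds variance-stabilized log2 values. Its inverse gave whole counts for 100% of values within 0.0001, from which depth, normalized counts and levels per kb (GENCODE M21 transcripts) were computed. Members and lists were chosen with earlier results of these data known.

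Differences were fitted with limma 3.58.1 (R 4.3.3, empirical Bayes with trend) on the deposited values, with sex as covariate (genotype for the sex comparison), over genes with a mean at least 1 above the lowest value. The Benjamini-Hochberg adjustment covered all genes tested, and genes below an adjusted p of 0.05 were called. Summed markers were compared by exact permutation (scipy 1.17.1). Fits were tested on simulated data.

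Besides the 7 members, genes were named from fixed lists if called (at most the 4 with the largest difference) or most abundant, with the 3 genes closest in pattern. Names outside this rule (Ccr3, Epx, Sdhc and markers at 0) were chosen after their values were seen. Symbols were matched to RefSeq by Entrez identifier (22685 of 22708 genes). The listed markers Tpsab1, Prss34, Igha, Ighm, Igkc and Trac were not in the table. Alternatives changed the minimum mean, scale, centring, samples, covariates and transcript length.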

Additional observations from a re-analysis of the deposited data

Results flagged for a closer look

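Within each group of 6 samples, the highest or lowest sample was compared with its nearest neighbour; 83 groups were examined and chance sets apart a sample in about 1 in 20 of them. Among 20 groups of values of the 7 Fc receptor genes, 2 held a sample set apart. The deposited value of Fcgr4 in Ahr-KO F3 was 7.03, the lowest of a tight group. The deposited value of Fcer1a in Ahrr-KO F3 was 5.42, the only sample of its group above a count of 0. With all others tied at 0, any count above 0 is set apart whatever its size. The share of about 1 in 20 does not apply to that group. The ratio of Fcgr4 to Fcgr2b per kb in Ahrr-KO M1 was 1.96, far above the rest of its group. The number of genes with a count was far above the group in WT F3, at 20244, and in Ahr-KO F3, at 19694. The summed marker level was far above the group in WT F3 for basophils, at 20.6, and for NK and T cells, at 154.9. It was far below the group in Ahrr-KO M2 for mast cells, at 63.4, and in Ahrr-KO F1 for NK and T cells, at 9.66.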

How the results depend on the processing

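Under the alternatives and with any single sample left out, Fcgr2b kept its call and direction in both comparisons with Ahr-KO samples, with WT minus Ahr-KO differences of -0.93 to -0.73. Fcgr4 kept both wherever it was tested, from 1.08 to 1.61. With the minimum mean raised to 3 above the lowest value, Fcgr4 was not tested in either comparison, and 1 of 3 tested members was called in each. WT F3 and Ahr-KO F3 were left out together, and the lengths exchanged, after seeing the data. Where nothing else is said, the cause was not tested.

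The count over all genes also moved. For WT against Ahr-KO it was 553 with all 18 samples in 1 fit and 586 without WT F3 and Ahr-KO F3 (fewer samples). For WT against Ahrr-KO it was 4 with no minimum mean, with voom, with log2 of normalized counts plus 1 and with centred samples, 5 with the minimum at 3 and 14 with all 18 samples. For Ahr-KO against Ahrr-KO it was 828 with the minimum at 3 (5372 genes tested) and 994 without sex in the model. For male against female it was 163 with no minimum mean and 211 without genotype in the model. The share of called genes higher in Ahr-KO than in Ahrr-KO samples was 46.0% as reported, 60.4% with the minimum at 3, 55.2% without sex in the model, 54.3% with centred samples and 38.4% with the replicate number as a block, and ran from 38.7% to 53.7% with 1 sample left out, so which direction held more genes depended on the setting. The WT minus Ahrr-KO difference of Fcgr4 turned from -0.02 to 0.0013 with voom and to 0.026 with centred samples.

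With 1 sample left out at a time, the count over all genes ran from 623 (without Ahr-KO F1) to 1124 (without WT F2) for WT against Ahr-KO, from 4 to 25 (without Ahrr-KO F1) for WT against Ahrr-KO, from 818 (without Ahr-KO M3) to 2574 (without Ahrr-KO F1) for Ahr-KO against Ahrr-KO and from 142 (without Ahr-KO M1) to 733 (without WT F1) for male against female. Members called stayed at 2, 0, 2 and 0. Differences that changed sign, none of them called, ran from -0.13 to 0.0033 for Fcgr3 between WT and Ahr-KO, and between WT and Ahrr-KO from -0.17 to 0.10 for Fcgr4, from -0.094 to 0.22 for Fcer1g and from -0.22 to 0.030 for Fcgrt.

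Replicate numbers did not pair the samples: correlations of same-numbered samples ran from -0.27 to 0.47, from -0.59 to 0.33 and from -0.34 to 0.33 over the 3 genotype comparisons, with 1, 3 and 2 of 6 pairs above 0.1, and 2 of 6 samples were closest to their own number in each. With the number as a block, 918, 4, 1946 and 442 genes were called in the genotype and sex comparisons, and the members called were 2, 0, 2 and 0.

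The log2 ratio of Fcgr4 to Fcgr2b per kb was -0.97 in WT, and 0.25 with the longest coding transcript and 0.96 with the union of exons. In Ahr-KO samples it was -3.33, and -2.11 and -1.40 with these lengths. In Ahrr-KO samples it was -0.64, and 0.58 and 1.29.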
